A study of Mus musculus with 9 samples.

Results

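The transcripts described here come from annotated mouse genes that are treated as non-coding in the lncRNA table of a liver RNA-seq study and have no row of their own in its mRNA table. A transcript was taken as a member when it had an Ensembl identifier, its gene was absent from the mRNA table, and it reached 0.5 FPKM (fragments per kilobase of transcript, scaled to the mapped fragments of the library) in at least 3 of 9 libraries. Transcripts were left out by gene name, for names that start with Snhg (small nucleolar RNA host genes) and for Gas5, Epb41l4aos, Dancr, Neat1 and Malat1. This removed 30 at the same level, and host genes listed under other names were not removed. This left 484 transcripts of 399 genes, out of 16534 annotated transcripts of such genes at any level and 54836 transcripts in the table. Members were thus selected on their measured FPKM, so levels are given as a description, and a member that passed through 1 group alone had to differ between groups. Just inside the limit, the member with the lowest third-highest value was 4930581F22Rik-207 at 0.500044 FPKM, and just outside it stood Gm43062-201 at 0.499651 FPKM.

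The livers came from wild-type C57 BL6 mice, 8 weeks old and 20 g on average. Control mice received saline. The APAP group received acetaminophen, an analgesic whose overdose kills hepatocytes around the central vein, at 500 mg/kg into the peritoneum. Mice of the dmPGE2+APAP group were first given dmPGE2, a stable relative of prostaglandin E2 made for longer action, by that route at a dose of 300 μg/kg and 1 h ahead of APAP, so that it shares the APAP dose with the APAP group. All livers were collected 6 h after APAP, with 3 libraries per group. The labels do not tie each library to its own mouse, and p-values measure the spread between these libraries.

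Long non-coding RNAs lack a long conserved reading frame, and many are spliced and polyadenylated like mRNAs but kept at low levels. Some act on the gene next to them, some only mark that a nearby promoter or enhancer is active, and others bind proteins or microRNAs elsewhere in the cell. Antisense transcripts overlap a gene on the opposite strand, sense intronic transcripts lie inside a gene on its own strand, and divergent transcripts start close to a gene's promoter and run the other way. In liver, such RNAs have been described at genes of lipid metabolism and of the stress response, which is why each member is given here with its nearest measured mRNA gene.

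The promoters printed next belong to members on which the comparisons below turn and for which RefSeq (GRCm38.p6) gives a start within 150 bases or a second upstream start. Each runs from 250 bases before the start to 50 bases after it, 5′ to 3′ on the gene's strand, and capitals mark every match on either strand to 6 motifs. These were AP-1 (TGANTCA), CRE (TGACGTCA), the ATF4 and CHOP composite element (TGATGNAA), the antioxidant response element (TGACNNNGC), the heat shock element and the E-box (CACGTG). The upstream start of A530013C23Rik, the member next to Cebpb, lies at chr2:167690509-167690808 on the plus strand.
A530013C23Rik, upstream start: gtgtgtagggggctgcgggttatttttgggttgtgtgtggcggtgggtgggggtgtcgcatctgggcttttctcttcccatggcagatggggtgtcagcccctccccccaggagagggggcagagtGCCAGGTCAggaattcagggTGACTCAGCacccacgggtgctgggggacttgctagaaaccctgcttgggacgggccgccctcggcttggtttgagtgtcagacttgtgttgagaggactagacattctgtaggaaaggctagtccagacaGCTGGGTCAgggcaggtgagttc
The second start of the same gene, at chr2:167690927-167691226 on the plus strand, is 4 bases from the start of the measured transcript.
A530013C23Rik, measured start: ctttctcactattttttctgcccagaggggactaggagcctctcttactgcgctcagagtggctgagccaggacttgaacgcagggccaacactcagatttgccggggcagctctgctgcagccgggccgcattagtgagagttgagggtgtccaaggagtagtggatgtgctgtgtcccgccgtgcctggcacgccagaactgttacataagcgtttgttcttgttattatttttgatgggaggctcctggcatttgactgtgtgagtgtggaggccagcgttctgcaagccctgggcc
Gm39228, the member next to Mt1, has its RefSeq promoter at chr8:94183169-94183468 on the plus strand.
Gm39228: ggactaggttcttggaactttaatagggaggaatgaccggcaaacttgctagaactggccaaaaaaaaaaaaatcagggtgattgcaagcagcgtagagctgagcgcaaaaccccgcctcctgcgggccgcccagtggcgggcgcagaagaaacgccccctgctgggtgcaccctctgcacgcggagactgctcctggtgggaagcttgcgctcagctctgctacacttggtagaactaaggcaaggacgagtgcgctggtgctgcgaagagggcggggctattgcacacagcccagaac
BC049987, which fell after APAP, has its promoter at chr9:44672211-44672510 on the minus strand.
BC049987: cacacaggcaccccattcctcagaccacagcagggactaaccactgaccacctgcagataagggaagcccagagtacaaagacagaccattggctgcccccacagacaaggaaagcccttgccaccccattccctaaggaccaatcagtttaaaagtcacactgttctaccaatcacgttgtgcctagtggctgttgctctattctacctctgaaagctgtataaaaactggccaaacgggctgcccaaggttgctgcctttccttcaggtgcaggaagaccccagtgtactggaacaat
Oip5os1, the RefSeq name of 1700020I14Rik and the mouse form of the lncRNA Cyrano, has its promoter at chr2:119594046-119594345 on the plus strand.
Oip5os1: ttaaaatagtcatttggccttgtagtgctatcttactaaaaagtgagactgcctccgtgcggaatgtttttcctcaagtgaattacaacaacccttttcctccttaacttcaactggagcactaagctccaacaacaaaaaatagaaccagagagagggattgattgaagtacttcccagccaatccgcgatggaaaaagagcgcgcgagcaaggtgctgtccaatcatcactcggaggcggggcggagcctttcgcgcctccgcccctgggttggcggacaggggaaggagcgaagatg
Only the upstream A530013C23Rik sequence among these 5 held a match, and it held 4: an AP-1 match that overlaps an antioxidant response element match 104 bases before the start, and 2 more antioxidant response element matches 124 bases before and 27 bases after it. Among all 32851 RefSeq promoters of this length, 7.81% held an AP-1 match and 12.4% an antioxidant response element match. Among the 117 promoters that start within 150 bases of a member, 6.84% and 15.4% did. The E-box was present in 14.5% of these 117 promoters and in 7.15% of all, with a median GC content of 58.7% against 52.7%. The upstream A530013C23Rik start lies 422 bases before that of the measured transcript and is not among the 117. Of these, 4 belong to members that rose after APAP, and 0 of the 4 matched any of the 6 motifs. Another 5 belong to members that fell, and 1 of them held an antioxidant response element match. A match is a string of letters and not a shown binding site.

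The annotation (GENCODE M21, GRCm38) held 479 of the 484 members, 477 of them with the same coordinates. By gene type, 148 were lincRNAs, 119 antisense, 87 processed transcripts, 58 sense intronic and 21 from bidirectional promoters, and the rest included 20 from transcribed unprocessed and 15 from transcribed processed pseudogenes. The label does not hold for 6 members, among them D930007J09Rik-201 and C730034F03Rik-201, whose genes are protein-coding in that release. For the other members found there it rests on that release's gene type alone, also under symbols such as Tmem134 and Ptpmt1. The 5 members not found there have no gene type. Of 399 genes, 341 had 1 member and 58 had several, with 7 for Tmem134. Relative to the nearest measured mRNA gene, 134 members overlapped it in antisense, 98 overlapped it in sense, 68 were divergent, 37 lay within 5 kb, 77 within 50 kb and 63 farther away. The strand of 7 pairs was not known. The library protocol in the labels marks the strand, but whether the quantification used it is not given in the sources used here, so the level of a member that overlaps an mRNA gene could hold reads of that gene.

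Levels were low for most members. The median of the mean over 9 libraries was 0.827 FPKM (quartiles 0.522 and 1.68), 207 members averaged at least 1 FPKM and 19 at least 10 FPKM. The limit of 0.5 FPKM was reached in all 9 libraries by 179 members and in exactly 3 by 66. It was reached in control libraries alone by 15 members, in APAP libraries alone by 3 and in dmPGE2+APAP libraries alone by 1. Members took between 15.9% and 32.9% of the FPKM of the lncRNA table per library. Without the Gm26917 and Gm42418 transcripts they summed to between 1024.9 and 1304.5 FPKM per library.

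**Figure D1:**
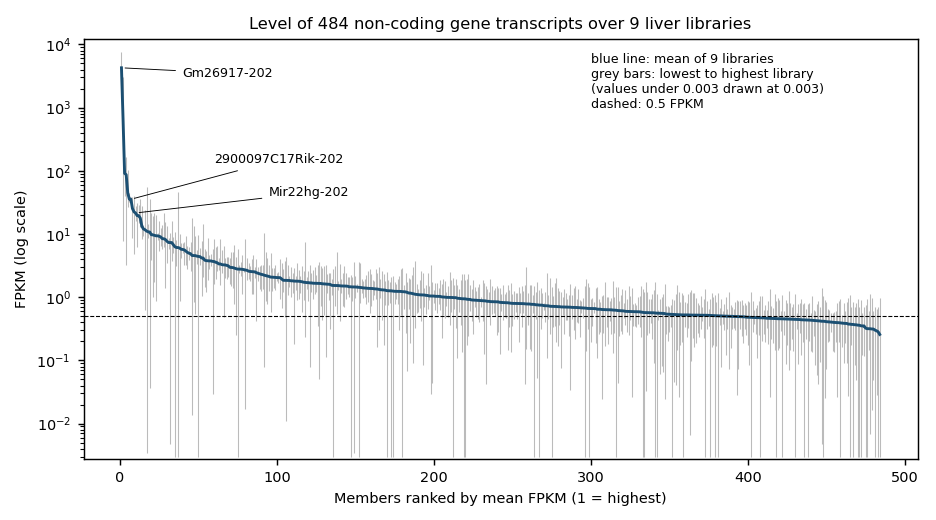
Mean FPKM of the 484 members over 9 libraries (blue line, log scale), ranked from the highest, with the lowest and highest library of each as a grey bar. The curve falls from 4269 FPKM for Gm26917-202 to a median of 0.827 FPKM, and the bars of 41 members reach a library listed at 0.

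Gm26917-202 (chr17:39843013-39846341) was the highest member, with 6527, 2331 and 2406 FPKM in the controls, 3339, 2635 and 7555 FPKM after APAP and 2836, 5295 and 5498 FPKM after dmPGE2+APAP. Gm42418-201, directly downstream at chr17:39846958-39848788, stood at 2672 FPKM in control replicate 2 and 3108 FPKM in dmPGE2+APAP replicate 2 and between 7.83 and 142.5 FPKM in the other 7 libraries. RefSeq places Rn18s-rs5, a sequence related to small-subunit ribosomal RNA, over Gm42418, and Gm26917 ends directly before it. How much of either level is ribosomal RNA was not tested. The groups overlapped for both transcripts, and neither passed the test in any comparison (adjusted p 0.67 to 0.99, limma).

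Several other high members were steadier. Norad (2900097C17Rik-202), an lncRNA that binds Pumilio proteins, was at 37.9, 36.0 and 36.9 FPKM in the controls, 35.1, 33.2 and 35.6 FPKM after APAP and 34.3, 35.7 and 34.7 FPKM after dmPGE2+APAP. Its largest ratio between libraries of 1 group was 1.07. AC117816.1-201, 1.09 kb from A1cf (the cofactor of apolipoprotein B mRNA editing), ranged from 32.2 to 44.3 FPKM. Mir22hg-202, the host transcript of the microRNA in its name, ranged from 15.8 to 28.2 FPKM. Scp2-ps2-203, a pseudogene transcript, stood at 40.5 FPKM in control replicate 1 and at 89.3 to 101 FPKM in the other 8 libraries. The pseudogene transcript Mug-ps1-203 ranged from 26.5 to 102.1 FPKM and the lincRNA Gm10076-202 from 4.83 to 40.04 FPKM, both without a call in any comparison.

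Several well-expressed members switched between a high and a low level among libraries of the same group. Among the 43 members with a mean of at least 5 FPKM, 8 had a ratio of at least 10 between libraries of the same group and 17 stayed under 2 in every group. Gm28967-201, a transcript of 281 bases within Ncapd2, was at 3.39, 3.25 and 138 FPKM in the controls, at 150, 3.499 and 4.01 FPKM after APAP and at 159, 168 and 154 FPKM after dmPGE2+APAP. Gm30097-201, antisense to Fgg (a fibrinogen chain), was at 36.0, 0.0727 and 0.0742 FPKM in the controls, 17.5, 21.4 and 0.0919 FPKM after APAP and 0.0571, 0.0372 and 21.5 FPKM after dmPGE2+APAP. In 0610005C13Rik, antisense to Bcat2, isoform 205 moved between 0.00345 and 55.8 FPKM while isoform 208 moved between 0.574 and 5.003 FPKM. A ratio of at least 10 within a group was also seen for 2410006H16Rik-201, C4a-207, Gm20634-201 and Gm26697-201.

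APAP was set against control to ask which of these transcripts differed 6 h after the overdose. After APAP, 26 members of 25 genes were higher and 14 members of 14 genes were lower (adjusted p under 0.05, limma on log2(FPKM + 0.1)), which is 8.26% of the 484 members. Over all 22984 transcripts tested, 4.23% were called, 3.43% higher and 0.801% lower. Among transcripts that reached the members' own level the shares were close, with 11.98% of members and 12.48% of all 7661 called when only those were tested, so the count does not set the members apart. Of the 26 higher members, 14 had no control library at 0.5 FPKM, and of the 14 lower members, 10 had no APAP library there, so that these were members only through the groups in which they were high. The median log2 fold change was 0.07 over members and 0.20 over all transcripts tested, and 136 members had an unadjusted p under 0.05. The 3 APAP libraries did not overlap the 3 controls for 173 members (35.7%), against 23.6% of all transcripts tested. The latter include transcripts below the members' level, and no share at that level is at hand, so nothing is read from the difference.

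All fold changes are relative to a rescaling of the libraries that shifted the APAP difference by 0.11 on the log2 scale. Of the called members 65% were higher, against 54.3% without rescaling and 50% when the lncRNA table alone set the scale. The number of calls fell to 14 without APAP replicate 1, 15 without APAP replicate 3, 18 without control replicate 2, 19 without control replicate 3 and 21 without control replicate 1, and 12 members were called in all 9 fits that left out 1 library. Calls over all 22984 transcripts tested fell as well, from 972 to 236, 237, 341, 334 and 341 in the same order.

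**Figure D2:**
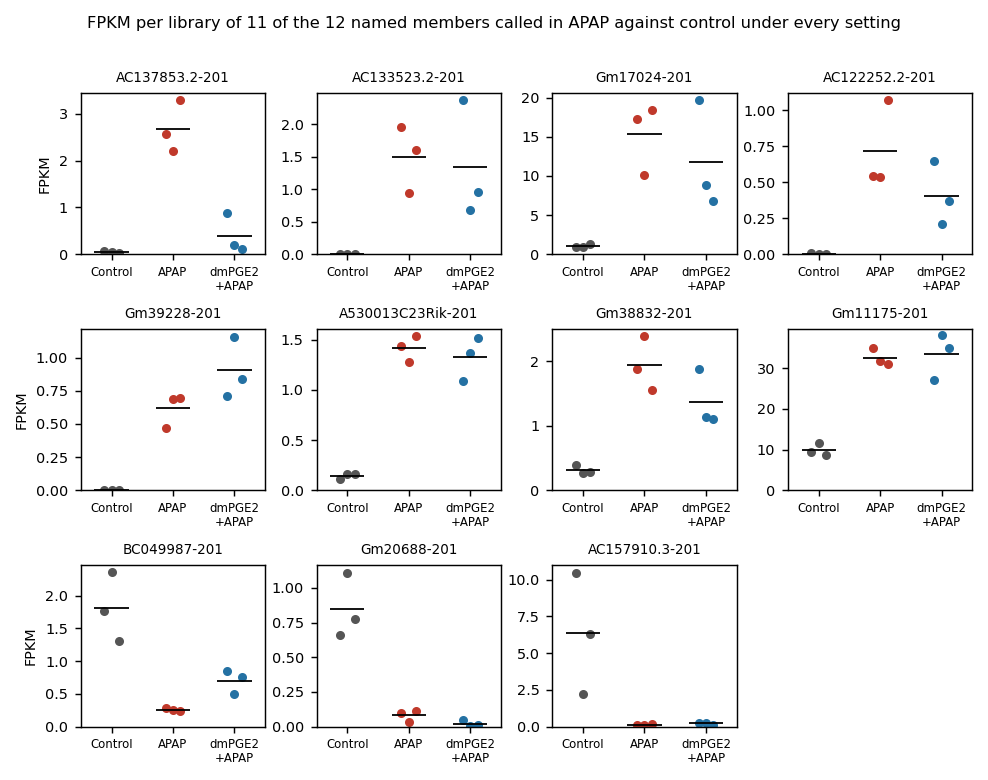
Deposited FPKM in each library (points) and group mean (line) for 11 of the 12 named members whose call in APAP against control held in all 18 alternative fits; each panel has its own axis from 0. In the 8 panels of members that rose, every APAP library lies above every control library, and in the 3 panels of members that fell, every APAP library lies below them. For most of these members such a lack of overlap was a condition of being named.

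Members that overlap the Dusp5, Chka and Ifrd1 genes rose after APAP. AC137853.2-201 (chr19:53528609-53529655), antisense to the start of Dusp5, a nuclear MAP kinase phosphatase, was at 0.0619, 0.0567 and 0.0292 FPKM in the controls and at 2.57, 2.20 and 3.29 FPKM after APAP. The groups were far apart, with a log2 fold change of 4.27 ± 0.50 (SE, adjusted p = 0.0039, limma). Dusp5 itself went from 0.420 ± 0.168 FPKM to 19.5 ± 7.55 FPKM (SD, n = 3 libraries per group), a log2 fold change of 5.34 (adjusted p = 0.0021, limma).

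AC133523.2-201 (chr19:3863568-3867673), antisense to Chka, the choline kinase of phosphatidylcholine synthesis, was listed at 0 in every control and stood at 1.96, 0.936 and 1.61 FPKM after APAP (adjusted p = 0.0030, limma). No fold is given against a group at 0. Chka rose with a log2 fold change of 5.24, from 6.02 ± 1.03 FPKM to 211 ± 41.1 FPKM (SD, n = 3 libraries per group). At the related locus Chkb, C730034F03Rik-201, of a gene annotated as protein-coding, rose from at most 0.0723 FPKM to at least 1.25 FPKM (log2 fold change 3.38 ± 0.75, adjusted p = 0.037, limma), and it lost the call in 8 of 18 alternative fits. Chkb had a log2 fold change of 0.78 (adjusted p = 0.088, limma).

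The Ifrd1 gene, an early-response coregulator of transcription, carried a member on each strand. Gm17024-201 (chr12:40209487-40211073), which lies inside Ifrd1 on its own strand, was at 0.876, 0.935 and 1.25 FPKM in the controls and at 17.3, 10.2 and 18.4 FPKM after APAP. This rise of 3.85 ± 0.41 on the log2 scale (adjusted p = 0.0025, limma) came with no overlap between the groups, which the choice of the largest rises required. Gm7008-201 (chr12:40222758-40225238) on the opposite strand went from 0.210, 0.115 and 0.0917 FPKM to 2.21, 0.698 and 3.04 FPKM (log2 fold change 3.01 ± 0.55, adjusted p = 0.020, limma). Ifrd1 rose from 6.90 ± 1.46 FPKM to 112 ± 30.6 FPKM (SD, n = 3 libraries per group), a log2 fold change of 4.12. Leaving out control replicate 2, control replicate 3, APAP replicate 1 or APAP replicate 3 ended the call of Gm7008-201 (adjusted p 0.064 to 0.075, limma). For both members APAP replicate 2 was the lowest of the APAP libraries, as it was for Ifrd1 at 77.4 FPKM.

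Members within 5 kb of Mt1, Dusp1 and Cebpb rose as well. Gm39228-201 (chr8:94183289-94184969), 2.05 kb past the end of Mt1, a metallothionein that binds zinc and is induced by metals and stress, was listed at 0 in every control and at 0.473, 0.691 and 0.697 FPKM after APAP (adjusted p = 0.0017, limma). Mt1 rose with a log2 fold change of 4.88, although its controls spread from 5.48 to 67.5 FPKM. AC122252.2-201 (chr17:26467560-26503200), 2.39 kb from Dusp1, another MAP kinase phosphatase, was listed at 0.0107, 0 and 0 FPKM in the controls and at 0.540, 0.534 and 1.07 FPKM after APAP (log2 fold change 2.95 ± 0.39, adjusted p = 0.0060, limma). Dusp1 had a log2 fold change of 3.36.

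A530013C23Rik-201 (chr2:167691181-167697801), whose upstream promoter is printed above, starts 763 bases past the end of Cebpb, the gene of a liver transcription factor of the acute phase. It was at 0.109, 0.166 and 0.166 FPKM in the controls and at 1.44, 1.28 and 1.54 FPKM after APAP. Its rise of 2.70 ± 0.25 on the log2 scale had the smallest adjusted p of any member (0.0016, limma). Cebpb rose by 1.63 on that scale, from 101 ± 29.5 FPKM to 277 ± 16.2 FPKM (SD, n = 3 libraries per group). On the same chromosome, 1200007C13Rik-201, 98.4 kb from Ptpn1, rose by 2.52 ± 0.39 (adjusted p = 0.012, limma), and without APAP replicate 1 or 3 it missed the threshold (adjusted p = 0.051 in both fits, limma).

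Gm11175 was the most abundant gene among the called members. Isoform 201 (chr8:70699538-70700080), antisense to Jund, which encodes a subunit of the AP-1 transcription factor, was at 9.52, 11.7 and 8.65 FPKM in the controls and at 35.0, 31.8 and 31.0 FPKM after APAP (log2 fold change 1.82 ± 0.23, adjusted p = 0.0055, limma). Isoform 202 rose by 1.79 and Jund by 1.70 on the same scale. The 3 fold changes differ by less than their standard errors, and both isoforms lie wholly within Jund, so reads of Jund could be counted in them.

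Further rises were smaller in level. Gm38832-201, 8.28 kb from the sialyltransferase gene St3gal5, went from at most 0.397 FPKM to at least 1.56 FPKM (log2 fold change 2.36 ± 0.31, adjusted p = 0.0062, limma). Gm15889-201, 6.12 kb from Herpud1, a gene of endoplasmic reticulum-associated degradation, rose by 2.04 ± 0.37 and missed the threshold without control replicate 1, control replicate 2 or APAP replicate 3 (adjusted p 0.059 to 0.068, limma). Gm42664-201 inside Ptbp2 rose by 1.87 ± 0.36. The same 4 omissions that ended the call of Gm7008-201 ended that of Gm42664-201 (control replicates 2 and 3, APAP replicates 1 and 3, adjusted p 0.054 to 0.080, limma). Apart from the Gm11175 transcripts, the called rises below that of Gm42664-201 ran from 1.17 (6820431F20Rik-202) to 1.82 (Gm27019-201), and each of these lost its call in at least 4 of the 9 fits that left out a library.

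A group of 7 members lay inside Magi3, the gene of a scaffold protein of cell junctions, and was singled out after its values were seen. All 7 consist of 1 exon, lie on the Magi3 strand between chr3:104135785-104140001 (Gm42702-201) and chr3:104187103-104190193 (Gm43256-201), and had log2 fold changes from 1.38 to 1.81. Their APAP libraries did not overlap the controls in any of the 7, and 4 were called (adjusted p 0.020 to 0.069 over the 7, limma): Gm43259-201, Gm42702-201, Gm43260-201 and C030032O16Rik-201. Their values spanned 0.145 to 0.768 FPKM in the controls and 0.582 to 2.598 FPKM after APAP, and APAP replicate 3 was the highest APAP library for all 7. Magi3 itself, at 9.34 ± 0.73 FPKM in the controls and 8.55 ± 1.56 FPKM after APAP (SD, n = 3 libraries per group), had a log2 fold change of −0.0015 (adjusted p = 0.995, limma). The 7 transcripts share introns of 1 gene and are not independent of each other.

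Single-exon members that overlap an mRNA gene in sense, a set also chosen after values were seen, numbered 48 with the 7 in Magi3. Their median log2 fold change after APAP was 0.65 with those 7 and 0.33 over the other 41, against 0.07 over all members and 0.20 over all transcripts tested. Of the 48, 6 were called, all higher, and of the 41 without Magi3, 2 were called (4.88%, beside 4.23% of all transcripts tested). The shares called by gene type stand beside that 4.23% and the 8.26% of all members, and nothing is read from their differences. By gene type, sense intronic members had 7 called higher (4 of them in Magi3) and 1 lower of 58 (13.8%), antisense members 8 and 3 of 119 (9.24%), lincRNAs 7 and 8 of 148 (10.1%), and processed transcripts 2 and 1 of 87 (3.45%). None of 21 members from bidirectional promoters was called by limma, with 4 at an unadjusted p under 0.05.

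Of the 14 members that fell after APAP, 8 belonged to genes annotated as lincRNA and 3 to antisense genes. AC157910.3-201 (chr18:65244287-65252621), a lincRNA of 2 exons that starts 26.5 kb past the end of Nedd4l, a ubiquitin ligase gene, was at 10.5, 2.25 and 6.32 FPKM in the controls and at 0.0945, 0.138 and 0.141 FPKM after APAP. It fell by 4.51 on the log2 scale (SE 0.53, adjusted p = 0.0039, limma). Nedd4l rose by 1.42, from 10.5 ± 1.89 FPKM to 25.6 ± 3.46 FPKM (SD, n = 3 libraries per group), and this was the only called member gene whose nearest mRNA gene was called in the opposite direction.

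BC049987-201 (chr9:44670453-44672238) starts 995 bases from the gene of trehalase, Treh, on the other strand. It was at 1.76, 2.36 and 1.31 FPKM in the controls and at 0.283, 0.256 and 0.240 FPKM after APAP, and it fell by 2.28 on the log2 scale (SE 0.31, adjusted p = 0.0070, limma). Treh had a log2 fold change of 0.59 (adjusted p = 0.49, limma). Gm20688-201 (chr15:77391702-77392381), inside the apolipoprotein L gene Apol7a on its strand, was at 0.662, 1.11 and 0.772 FPKM in the controls and at 0.0976, 0.0316 and 0.112 FPKM after APAP, and fell by 2.32 (SE 0.31, adjusted p = 0.0070, limma). Apol7a fell by 1.45, from 30.5 ± 3.78 FPKM to 10.1 ± 1.46 FPKM (SD, n = 3 libraries per group).

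Cyrano (1700020I14Rik-202, chr2:119594303-119607502), an lncRNA with a conserved site that directs the decay of a microRNA, differed little between libraries of a group, with a largest ratio of 1.11. It was at 12.5, 13.1 and 13.9 FPKM in the controls, at 5.90, 6.30 and 6.47 FPKM after APAP and at 6.05, 5.91 and 5.94 FPKM after dmPGE2+APAP. The fall after APAP was 0.96 on the log2 scale (−0.96 ± 0.21, adjusted p = 0.036, limma), but it stayed called in only 1 of the 9 fits that left out a library. Its shorter isoform 201 went from between 1.602 and 2.716 FPKM to between 0.965 and 1.78 FPKM, with a log2 fold change of −0.64 (adjusted p = 0.35, limma).

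Lncppara-201, 28.3 kb from Ppara, the receptor that drives fatty acid oxidation in the fasted liver, was at 0.644, 1.42 and 1.73 FPKM in the controls and at 0.0333, 0.323 and 0.259 FPKM after APAP (log2 fold change −2.13 ± 0.51, adjusted p = 0.048, limma). None of the 9 fits without 1 library called it, and Ppara had a log2 fold change of −0.29 (adjusted p = 0.16, limma). The other falls included Gm44787-202 (−2.34), Gm27177-202 antisense to Loxl2 (−2.28), 9030619P08Rik-203 (−2.64), 0610005C13Rik-208 (−1.82), Gm47467-201 near Zfp825 (−1.57, with Zfp825 at −1.24), Gm5524-201 (−1.45) and Gm19950-202 antisense to Acsm1 (−1.47), all as log2 fold changes. C730027H18Rik-203 fell by 1.46 and 4831440E17Rik-201 by 1.27 on that scale. Without 1 library, Gm44787-202 (control replicate 1 or 2, or APAP replicate 3), 9030619P08Rik-203 (control replicate 2 or 3, or APAP replicate 1) and C730027H18Rik-203 (control replicate 1 or 2, or APAP replicate 1) missed the threshold, with adjusted p of 0.051 to 0.074 (limma). The others named in these sentences missed it in at least 6 of the 9 fits that left out a library, controls included.

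Set against their neighbours, 14 of the 25 genes with a risen member had a nearest mRNA gene that rose too, none had one that fell, and 11 had one that was not called. A shared neighbour counts once per member gene here: Gm17024 and Gm7008 share Ifrd1, and the 4 called members inside Magi3 share that gene. Of the 14 genes with a fallen member, the nearest mRNA gene fell for 2, rose for 1 and was not called for 11. Of the 365 distinct nearest genes of all members, 64 were called higher and 27 lower, or 24.9%, against 20.9% of all 11557 mRNA genes tested (11.8% higher and 9.08% lower). Whether the rises and falls differ in this respect was not tested. Without rescaling, 47.3% of the called nearest genes were higher, against 70.3% as reported.

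The fold changes of members and nearest genes moved together mainly in the antisense, sense and within 5 kb classes. They did so less in the divergent class, which was assigned first and holds pairs whose starts also lie within 5 kb. With 1 member per gene, Pearson's r between the log2 fold changes was 0.53 over 113 antisense overlaps, 0.39 over 87 sense overlaps and 0.61 over 32 pairs within 5 kb. It was 0.12 over 52 divergent pairs, 0.11 over 61 pairs within 50 kb and −0.08 over 50 pairs farther apart. These r are across genes of the same 9 libraries, as a description, and rest in part on a few strongly induced neighbours: without those that rose at least 4-fold, r was 0.25 for antisense overlaps, 0.42 for sense overlaps and 0.43 within 5 kb.

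**Figure D3:**
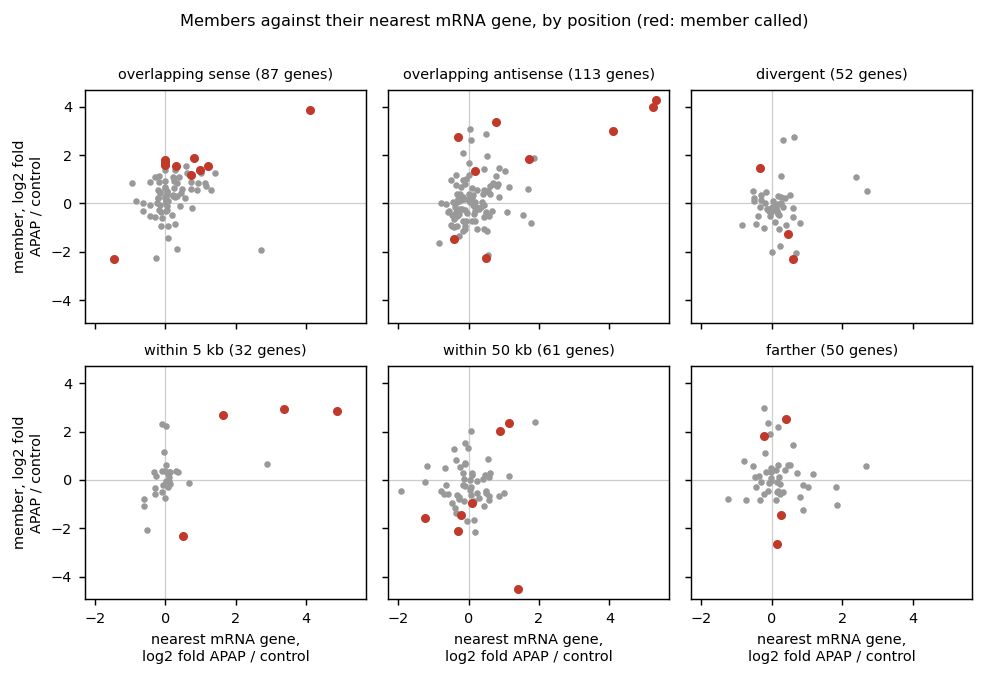
Log2 fold change of each member gene (its highest member) against that of its nearest mRNA gene, APAP against control, in 6 panels by position; red points are called members. Points reach the upper right corner in the sense, antisense and within 5 kb panels, at Ifrd1, Dusp5, Chka, Mt1 and Dusp1, and folds against controls listed at 0 are fitted values with 0.1 FPKM added.

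Not every member beside a strongly induced gene followed it. Hspa1b, an inducible chaperone of the heat shock response, rose by 2.89 on the log2 scale, while the 3 members of 1110038B12Rik, which lie within 4 kb of it, had log2 fold changes of 0.67, 0.19 and −0.52 (adjusted p 0.38 to 0.87, limma). The cytoskeletal actin gene Actg1 rose by 2.40 and its divergent neighbour 0610009L18Rik-201 had 1.08 (adjusted p = 0.081, limma). Next to the histone gene Hist2h3c1, which rose by 2.71, Gm20633-201 had 0.50 and Gm20634-201 had −1.92, with adjusted p of 0.31 and 0.66 (limma). Hist2h3c1 was uneven after APAP, at 9.975, 1.268 and 1.978 FPKM. Gm20634-201 differed up to 40000-fold between libraries of 1 group, so its fold does not show whether it followed.

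The comparison of dmPGE2+APAP with APAP asks whether the pretreatment changed these levels under the overdose. No member was called by limma, nor was any of the 22984 transcripts (0%) or 11557 mRNA genes (0%), and 35 members had an unadjusted p under 0.05. The smallest adjusted p among members was 0.12. In simulated data this comparison recovered 84 of 200 transcripts changed by 2 on the log2 scale, so the lack of calls does not show a lack of change. The groups of libraries did not overlap for 66 members (13.6%), against 11.6% of all transcripts tested, which include lower levels. The median log2 fold change of members was −0.05.

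The members with the smallest p in that comparison were Gm8325-202, AI480526-203, Notumos-201, AC137853.2-201 and 9030619P08Rik-203. Gm8325-202, a processed pseudogene transcript, was at 4.43, 5.29 and 5.50 FPKM after APAP and at 0.512, 0.916 and 0.485 FPKM after dmPGE2+APAP (log2 fold change −2.85 ± 0.42, adjusted p = 0.12, limma). AI480526-203, antisense to the histone methyltransferase gene Setd1b, was at 0.793, 0.843 and 1.27 FPKM after APAP and at 0.225, 0.0810 and 0 FPKM after dmPGE2+APAP (−2.55 ± 0.42, adjusted p = 0.17, limma). In the opposite direction, 9030619P08Rik-203, which had fallen after APAP, was at 0, 0 and 0.0278 FPKM after APAP and at 0.395, 0.221 and 0.738 FPKM after dmPGE2+APAP (2.27 ± 0.43, adjusted p = 0.26, limma), within the range of the controls in 2 of 3 libraries. In each of these pairs the groups did not overlap, but the difference missed the threshold set over all transcripts.

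The Dusp5 antisense transcript AC137853.2-201 was at 0.875, 0.200 and 0.121 FPKM after dmPGE2+APAP, under all 3 APAP libraries and over all 3 controls. Its log2 fold change against APAP was −2.78 ± 0.50 (adjusted p = 0.23, limma), beside −2.89 for Dusp5 (adjusted p = 0.32, limma), which stood at 9.74, 1.83 and 0.729 FPKM. Replicate 1 was the highest dmPGE2+APAP library for both. Without dmPGE2+APAP replicate 1, AC137853.2-201 (−3.44, adjusted p = 0.013, limma), Gm28592-201 antisense to Phlda1 (−3.19, adjusted p = 0.021, limma) and AI480526-203 (−2.99, adjusted p = 0.045, limma) were called lower. Without dmPGE2+APAP replicate 2, C730034F03Rik-201 was called lower (−3.25, adjusted p = 0.031, limma), and without APAP replicate 3, Gm12840-201 was called higher (3.60, adjusted p = 0.034, limma). Of all 22984 transcripts tested, 11 were called without dmPGE2+APAP replicate 1, 2 without dmPGE2+APAP replicate 2 and 3 without APAP replicate 3.

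Gm28592-201 was at 6.09, 5.27 and 4.15 FPKM in the controls, 21.9, 12.3 and 21.02 FPKM after APAP and 11.3, 2.05 and 1.72 FPKM after dmPGE2+APAP. With all libraries it did not pass the test in either comparison (adjusted p = 0.13 against control and 0.49 for dmPGE2+APAP against APAP, limma). Among members called after APAP, Gm17024-201 stood at 19.7, 8.87 and 6.81 FPKM after dmPGE2+APAP, with 1 library above the APAP range and 2 below it. Gm11175-201 and A530013C23Rik-201 overlapped their APAP values, at 27.0 to 38.2 FPKM and 1.09 to 1.52 FPKM.

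**Figure D4:**
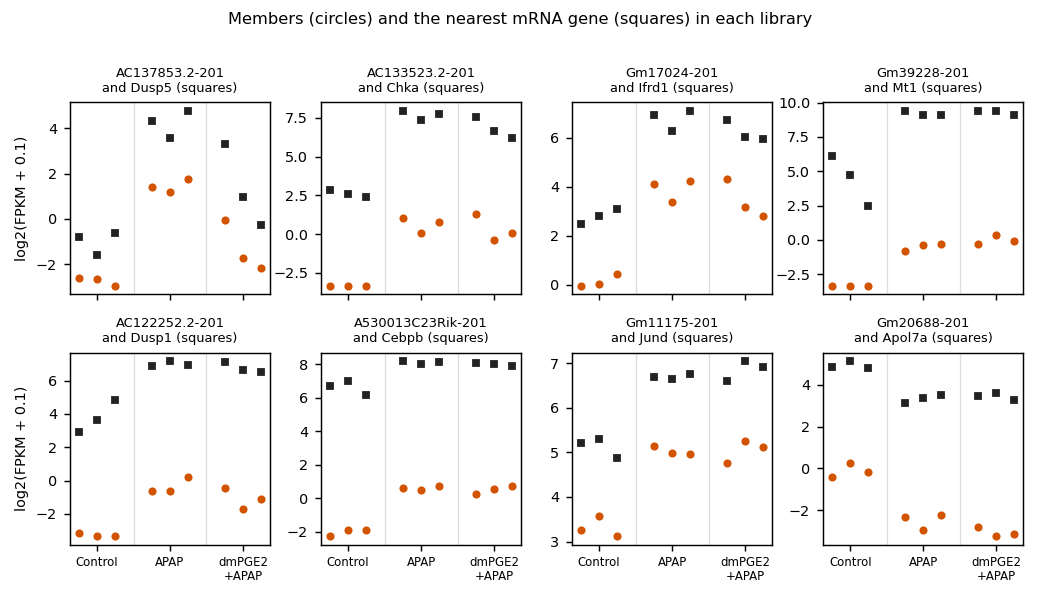
Level of 8 members (circles) and of their nearest mRNA gene (squares) in each of the 9 libraries as log2(FPKM + 0.1), with replicates 1 to 3 from left to right in each group and a separate axis per panel. In the Dusp5 panel both lie lower in all 3 dmPGE2+APAP libraries than in the APAP libraries, in the Cebpb and Jund panels the libraries of the 2 treated groups overlap, in the Mt1 panel those of Mt1 overlap while Gm39228-201 lies higher in all 3 dmPGE2+APAP libraries, and Apol7a and Gm20688-201 are both lower in all 6 treated libraries than in the controls.

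The comparison of dmPGE2+APAP with control shares its control libraries with the APAP comparison, so the values are given side by side. After dmPGE2+APAP, 12 members of 11 genes were higher than control and 8 were lower (adjusted p under 0.05, limma), 4.13% of members against 1.68% of all transcripts tested (1.26% higher, 0.413% lower). Among transcripts at the members' level alone, 6.82% of members and 7.15% of all were called. Of the 19 genes with a called member, 10 had a nearest mRNA gene called in the same direction, 1 in the opposite direction and 8 not called. Of the 365 nearest genes of all members, 51 were called higher and 23 lower in this comparison, or 20.3%, against 16.3% of all mRNA genes tested (8.71% higher and 7.57% lower). Without rescaling the majority turned, with 38 of these nearest genes higher and 53 lower (41.8% higher, against 68.9% as reported). The libraries of the groups did not overlap for 169 members (34.9%), against 22.6% of all transcripts tested, which include lower levels. The count of members fell to 9 without dmPGE2+APAP replicate 1 and to 10 without dmPGE2+APAP replicate 2, dmPGE2+APAP replicate 3 or control replicate 2, and to 12 without control replicate 1 or control replicate 3. Over all transcripts tested, the calls fell from 385 to between 96 and 147 in these fits. The lncRNA table's own scale gave 47.6% higher calls, against 60% as reported.

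Members that had risen after APAP stood high again: Gm17024-201 had a log2 fold change of 3.38 against control (3.85 for APAP against control), A530013C23Rik-201 2.61 (2.70) and Gm11175-201 1.84 (1.82). Gm39228-201 beside Mt1 was at 0.714, 1.16 and 0.836 FPKM and AC133523.2-201 at 2.36, 0.683 and 0.955 FPKM, both called against controls listed at 0. With a pseudocount of 1 in place of 0.1, AC133523.2-201 missed the threshold (adjusted p = 0.067, limma). AC137853.2-201 had 1.49 against control (adjusted p = 0.18, limma), beside 4.27 for APAP. AC157910.3-201 fell by 4.12, at 0.274, 0.273 and 0.0774 FPKM, and Gm20688-201 fell by 2.87. These members except AC137853.2-201, which was not called, kept the call in all 9 fits that left out a library, whereas AC122252.2-201, 1200007C13Rik-201, Gm38832-201 and Gm42664-201, also called higher than control, lost it in at least 5.

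Calls of dmPGE2+APAP against control that the APAP group did not give concerned 5 members. AI480526-203, at 1.82, 1.87 and 1.57 FPKM in the controls, fell by 3.27 on the log2 scale (adjusted p = 0.0075, limma), and its APAP libraries lay between the other groups. Notumos-201, antisense to Notum, an enzyme that inactivates Wnt proteins, was at 0.420, 0.426 and 0.689 FPKM in the controls, 0.612, 0.363 and 0.507 FPKM after APAP and 0.0970, 0.105 and 0.0836 FPKM after dmPGE2+APAP (log2 fold change −1.54, adjusted p = 0.033, limma). Notum itself had −0.15 against control (adjusted p = 0.35, limma). Gm15690-201, antisense to Sds, the serine dehydratase of gluconeogenesis, rose by 1.59 (adjusted p = 0.042, limma) and Sds by 1.56 (adjusted p = 0.021, limma). Gm8325-202 fell by 2.27 and 1110002L01Rik-202, antisense to Asxl2, by 1.88. The call of AI480526-203 held in all 9 fits that left out a library, and the other 4 lost theirs in at least 6. The difference between dmPGE2+APAP and APAP was tested for all 5 and passed for none (adjusted p 0.12 to 0.53, limma).

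The lncRNAs on lists drawn up for this tissue and treatment are given next, beside 8.26% of all members called after APAP and 4.23% of all transcripts tested. Of 3 imprinted or X-inactivation members, Kcnq1ot1-201 (0.206 to 1.06 FPKM), Peg13-201 (1.18 to 2.17 FPKM) and Jpx-204 (0.161 to 1.15 FPKM), 0 were called by limma, with 0 at an unadjusted p under 0.05 after APAP. Of 3 microRNA host members, Mir22hg-201, Mir22hg-202 and Mir142hg-201, 0 were called and 0 had an unadjusted p under 0.05. The telomerase RNA Terc-202 ranged from 0 to 9.71 FPKM without a call. Of 13 members from 6 genes listed as stress, growth and p53 lncRNAs (Norad, Tug1, Lncpint, Firre, Gm26917 and Cyrano), Cyrano isoform 202 alone was called (7.69%), lower after APAP and after dmPGE2+APAP. Gm26917 is the member beside the sequence related to ribosomal RNA.

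Tug1, an lncRNA that binds chromatin regulators, had its isoform 201 at 1.31, 1.31 and 1.31 FPKM in the controls, 0.993, 0.971 and 0.907 FPKM after APAP and 0.935, 0.842 and 0.809 FPKM after dmPGE2+APAP. All 6 treated libraries lay under the 3 controls, yet the log2 fold change of −0.32 after APAP did not pass the test (adjusted p = 0.49, limma). Lncpint-207, an isoform of a p53-induced lncRNA, was at 0.982, 0.122 and 0.116 FPKM in the controls and at 3.23, 1.80 and 3.27 FPKM after APAP (log2 fold change 2.97, adjusted p = 0.12, limma), while isoforms 205, 206 and 214 had 0.27, −0.42 and 0.78. Firre-206, which organises chromatin from the X chromosome, had a log2 fold change of 2.35 (adjusted p = 0.17, limma).

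Of 11 members from 6 liver and metabolism lncRNA genes, 0610005C13Rik-208 alone was called (9.09%), lower after APAP. Gm15441-202, antisense to Txnip, the thioredoxin inhibitor, was at 1.99, 2.88 and 0.0167 FPKM in the controls and at 8.32, 0.931 and 4.04 FPKM after APAP, with overlapping groups (adjusted p = 0.40, limma). Hnf4aos-203, antisense at the locus of the hepatocyte factor Hnf4a, had a log2 fold change of −0.92 (adjusted p = 0.19, limma). Of 16 members whose gene name or RefSeq name has the ending os, os1, -as or as1, 1 was lower after APAP (6.25%: Cyrano, through its RefSeq name). In this list 2 were lower after dmPGE2+APAP against control (Cyrano and Notumos). Members with a plain gene symbol, such as Tmem134, are not in it.

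The tissue label held: 7 of 7 hepatocyte markers were measured, and their mRNA summed to 36140 to 38740 FPKM in the controls, 41290 to 48340 FPKM after APAP and 42500 to 47010 FPKM after dmPGE2+APAP. Some other marker lists moved with the treatment, and the rest had few or no calls. After APAP, 1 of 7 Kupffer and macrophage, 1 of 5 stellate and 1 of 4 tested cholangiocyte markers were higher. Of 5 sinusoidal endothelium markers, 1 was higher and 1 lower. The 1 monocyte and 1 exocrine pancreas marker tested were not called, and no lymphocyte marker was tested. Of 13 neutrophil markers 5 were tested, 4 of them higher after APAP, while Camp was at 0 throughout and Elane, Ltf, Ly6g, Mpo and Ngp stayed under 0.5 FPKM in every library. The 13 summed to 2.64 to 6.94, 10.3 to 42.4 and 5.39 to 11.7 FPKM in the 3 groups. Platelet markers, 4 of 6 tested and all 4 higher after APAP, summed to 1.68 to 2.09, 14.3 to 17.8 and 3.496 to 8.119 FPKM. Erythroid markers, 5 of 6 tested and 3 higher after APAP, summed to 361 to 495, 520 to 1114 and 364 to 390 FPKM, and pericentral hepatocyte markers, 4 of 8 lower after APAP, to 3857 to 5092, 2871 to 3650 and 3782 to 4067 FPKM. Their part in the differences of members was not tested, and in bulk liver fewer cells of a type and less RNA per cell cannot be told apart.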

How the data were processed

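RNA was measured in 9 mouse liver libraries, and the report uses the FPKM tables of mRNA genes and of lncRNA transcripts that the authors deposited. The submitters' processing notes name HISAT2 and the build GRCm38 (mm10), and the quantifier is not given in the sources used here. The deposited read count tables do not hold counts but a score: each lncRNA value equals FPKM times the locus span times a constant per library (within 1% for all scores of at least 1000). Depth is therefore unknown, no interval from counts is given, and count tests were not used. Control columns carry a name the labels do not define and were assigned by elimination.

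Libraries were brought to a common scale by the mean log ratio to their average, without weights and with the outer 30% of ratios and 5% of abundances trimmed; then 0.1 was added and the log2 taken, so folds of low transcripts are understated. Transcripts with 0.1 FPKM and mRNA genes with 0.5 FPKM in at least 3 libraries were tested, 22984 and 11557 in all. They were fitted with limma 3.58.1 (R 4.3.3) as 3 group means over 9 libraries, with an abundance trend, two-sided tests and p-values adjusted by Benjamini-Hochberg over every feature (threshold 0.05). In data simulated for these transcripts, 88 of 200 changed by 2 on the log2 scale were recovered for APAP against control and 84 of 200 for dmPGE2+APAP against APAP. An exact test of 3 against 3 libraries cannot reach p under 0.1.

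Members were annotated with GENCODE M21, and the nearest mRNA gene was the closest tested locus. Named members were the 10 largest called rises and falls per comparison without overlap, the 10 highest levels, the 8 largest called changes beside a called gene within 5 kb, and every member on the lists. The result of 1 member among the largest called rises is not reported here, and members of the lists are given partly as counts. Members and lists were chosen with earlier results of these data known. Alternatives were other scales, pseudocounts, filters, fits, gene sums, a replicate block and leaving out each library.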

Additional observations from a re-analysis of the deposited data

How the results depend on the processing

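None of the 43 called fold changes of named members changed direction under any alternative. That was largely set by the selection, because most of these members were named for groups that did not overlap. Of the 182 that were not called, 89 changed direction under at least 1 alternative. For APAP against control these included Gm42418-201 (−0.82, 1.69 without control replicate 2), Gm28967-201 (0.26, −1.50 without APAP replicate 1) and Gm26917-202 (0.40, −0.04359 without APAP replicate 3). For APAP against control (40 members called), 25 were called without a filter on low values, 62 genes when the transcripts of a gene were summed, and between 14 and 43 when 1 library was left out; the fits without dmPGE2+APAP replicates gave 43, 27 and 30. For dmPGE2+APAP against control (20), 9 were called with a pseudocount of 1, 33 with the stricter filter of 0.5 FPKM, 13 without a filter, 10 with only the 6 libraries compared, 31 genes from summed transcripts, and between 9 and 19 when 1 library was left out. For dmPGE2+APAP against APAP (0), leaving out 1 library gave 0 to 3 members, and 0 to 2 nearest mRNA genes. Counts over all transcripts tested moved as well. For APAP against control they were 972, 625 without a filter and 236 to 892 with 1 library left out. For dmPGE2+APAP against control they were 385, 248 without a filter and 96 to 346 with 1 library left out. For dmPGE2+APAP against APAP they were 0, and 0 to 11 with 1 library left out. No pairing of libraries by replicate number was seen (correlations of deviations between same-numbered libraries of −0.045 to 0.033), and the labels give none. With the number as a replicate block, 19 members were called for APAP against control and 10 for dmPGE2+APAP against control. Of 25 named members called after APAP, 12 kept the call in all 18 alternative fits and 13 lost it in at least 1, and of 18 named after dmPGE2+APAP against control, 7 kept it and 11 lost it. The cause was not tested, except that fewer transcripts are adjusted for under the stricter filter and fewer libraries enter the fits that leave one out. Most members sit near the level limit, where the unknown depth leaves the counting error of a value unknown.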
